A study of Oryctolagus cuniculus with 9 samples.

Results

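IL6, CSF3, PTGS2, ICAM1 and ACOD1 are 5 of the 19291 genes in the deposited tables. They encode secreted, enzymatic and adhesive products of inflammatory signalling. They were picked by symbol, and they were grouped because their levels in the 3 groups of these same tables follow different dose shapes. The count and FPKM values of all 3 groups therefore chose them. Their levels, differences and calls are given as a description, with no p-value.

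The 9 mRNA libraries come from HA-VSMC, a cultured line recorded as rabbit in the labels, and fall into 3 groups of 3. Cells were given 50 nM or 250 nM β-estradiol, with a control beside them, and the protocol gives 48 h before harvest. Estradiol had been dissolved in DMSO with sodium hydrogen carbonate, all cells grew in RPMI1640 with fetal bovine serum, but nothing says if that vehicle was also given to the controls. Controls are tagged with estrogen as treatment and WT as concentration, and the written protocol names 250 nM alone. HA-VSMC is the only line here, its species was not checked, and nothing says that replicates were separate cultures, so the spread and every p-value below measure differences between these samples, which may be technical.

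Inflammatory genes of this kind are switched on when receptors for cytokines or microbial products release NF-κB and activate MAP kinases and C/EBP factors. Their transcripts are usually short-lived, because decay factors bind AU-rich or stem-loop elements in them. In vascular smooth muscle, such genes are known to respond to interleukin 1 and tumour necrosis factor, and their products attract, activate or hold leukocytes. Estrogen receptors are known to restrain NF-κB in some vascular settings and to leave it unaffected in others.

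Total counts were 54718407 to 72274464 units per library. Low values pile up at 4, 8 and 12, so about 4 units stand for 1 fragment and the totals correspond to about 13679602 to 18068616 fragments. Of the genes listed, 12324 had enough counts to be tested. Among smooth muscle markers, ACTA2 averaged 1286 FPKM, TPM2 998 FPKM and CALD1 424 FPKM over the 9 libraries, while MYH11 averaged 5.18 FPKM, MYOCD 0.406 FPKM, and DES was listed at 0. The table has no row for TAGLN or CNN1 under these symbols. Summed FPKM of the smooth muscle markers listed was 2635 to 2808 at 50 nM and 2695 to 2750 at 250 nM. It was 2712 to 2872 in the control, so the groups overlapped. Of 16 leukocyte and macrophage markers in the table, 6 were listed at 0 in every library, among them ITGAM, CD163 and TYROBP. LAPTM5 averaged 65.8 FPKM and the other 15 at most 0.0803 FPKM each. The summed FPKM of that list was 60.8 to 68.0 at 50 nM and 63.5 to 70.8 at 250 nM, against 63.6 to 69.4 in the control, so it did not separate the groups. Endothelial and epithelial sums overlapped between the groups too, at 16.8 to 18.9 and 34.2 to 44.3 FPKM. FLT1 averaged 16.3 FPKM and the other 12 endothelial genes at most 0.737 FPKM each. KRT14 averaged 37.8 FPKM and the other 9 epithelial genes at most 2.475 FPKM each. The leukocyte, endothelial and epithelial sums thus each follow mainly a single gene and say little about those cell types. The fibroblast list, which has 11 of its 12 listed genes above 1 FPKM, summed to 10894 to 11195 FPKM at 50 nM and 11026 to 11379 FPKM at 250 nM, against 10152 to 10792 FPKM in the control. Every estradiol library thus had a higher sum than every control. Most of that sum came from VIM, COL1A2, COL1A1 and COL3A1, which averaged 3787, 2961, 2076 and 1210 FPKM. PDGFRA averaged 0.359 FPKM, so the sum says little about fibroblasts as a cell type. In the edgeR test described below, 2 of the 12 genes, COL1A1 and COL1A2, were called higher at 50 nM (16.7%, against 3.25% of all genes). At 250 nM COL1A1 alone was called (8.33%, against 0.308%). The part of this list in the differences below was not tested. In cultures measured in bulk, more expressing cells and more RNA per cell cannot be told apart.

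IL6 encodes interleukin 6, a cytokine that acts through a receptor chain and the shared signalling subunit gp130. Its level, as CPM (counts scaled by library total, with TMM factors), was 18.4, 15.4 and 18.3 in control replicates 1, 2 and 3. It was 25.8, 22.8 and 19.2 CPM at 50 nM, and 23.6, 28.3 and 28.1 CPM at 250 nM. IL6 was thus highest on average at the higher concentration, and no library of either estradiol group fell within the control range, while the estradiol groups overlapped each other. The mean was 22.6 ± 3.27 CPM at 50 nM and 26.7 ± 2.67 CPM at 250 nM, against 17.4 ± 1.69 CPM in the control (SD, n = 3 each). The fitted log2 fold change was 0.38 ± 0.11 at 50 nM and 0.62 ± 0.11 at 250 nM against the same controls (estimate ± SE), which is 1.30-fold and 1.53-fold. Between 250 nM and 50 nM it was 0.24 ± 0.11, with a 95% interval of 0.01 to 0.47. That difference was not called by edgeR. Intervals of IL6 and of the genes grouped with it are not adjusted for the number of genes or for how they were picked. Such intervals are given as a description and are not read as tests.

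CSF3 encodes granulocyte colony-stimulating factor, which drives the production and release of neutrophils. Its level was 109, 102 and 94.5 CPM in control replicates 1, 2 and 3, then 175, 192 and 154 CPM at 50 nM, and 115, 135 and 155 CPM at 250 nM. CSF3 was highest at 50 nM, and its 250 nM libraries spread between the other groups: the lowest stood just above the controls and the highest within the 50 nM range. The means were 174 ± 18.9 CPM at 50 nM and 135 ± 20.1 CPM at 250 nM, against 102 ± 7.38 CPM in the control (SD, n = 3 each). The log2 fold change was 0.77 ± 0.10 at 50 nM, or 1.70-fold, and 0.41 ± 0.10 at 250 nM, or 1.32-fold. Between 250 nM and 50 nM it was -0.36 ± 0.10, with a 95% interval of -0.57 to -0.15. That interval is likewise unadjusted, and edgeR did not call the difference.

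PTGS2 encodes cyclooxygenase 2, the inducible enzyme that turns arachidonic acid into the precursor of prostaglandins. Its level was 72.2, 73.0 and 84.5 CPM in control replicates 1, 2 and 3, then 71.6, 55.1 and 51.0 CPM at 50 nM, and 90.8, 91.4 and 88.2 CPM at 250 nM. PTGS2 differed from the other 4 genes in being lower than the control at 50 nM and higher at 250 nM. The first 50 nM library lay just under the lowest control. The means were 59.2 ± 10.9 CPM at 50 nM and 90.1 ± 1.72 CPM at 250 nM, against 76.6 ± 6.88 CPM in the control (SD, n = 3 each). The log2 fold change was -0.37 ± 0.10 at 50 nM and 0.23 ± 0.10 at 250 nM. Between 250 nM and 50 nM it was 0.61 ± 0.10, or 1.52-fold, with a 95% interval of 0.39 to 0.82 and no overlap between the groups.

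ICAM1 encodes the intercellular adhesion molecule to which leukocyte integrins bind. Its level was 387, 342 and 353 CPM in control replicates 1, 2 and 3, then 445, 450 and 453 CPM at 50 nM, and 412, 418 and 400 CPM at 250 nM. The 3 groups did not overlap, and their order was control, 250 nM, 50 nM. The means were 449 ± 3.62 CPM at 50 nM and 410 ± 9.16 CPM at 250 nM, against 361 ± 23.2 CPM in the control (SD, n = 3 each). ICAM1 had the smallest fold differences of the 5 genes against the control, 1.25-fold at 50 nM (log2 0.32 ± 0.05) and 1.14-fold at 250 nM (log2 0.19 ± 0.05). Between 250 nM and 50 nM the log2 fold change was -0.13 ± 0.05.

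ACOD1 encodes aconitate decarboxylase, which makes itaconate from a citric acid cycle intermediate and is known mainly from activated macrophages. Its level was 5.08, 4.59 and 4.01 CPM in control replicates 1, 2 and 3, then 11.1, 11.6 and 7.06 CPM at 50 nM, and 7.51, 7.45 and 9.71 CPM at 250 nM. All 6 estradiol libraries stood above all 3 controls, while the estradiol groups overlapped. The means were 9.92 ± 2.498 CPM at 50 nM and 8.22 ± 1.29 CPM at 250 nM, against 4.56 ± 0.535 CPM in the control (SD, n = 3 each). These were the largest fold differences of the 5 genes against the control, 2.18-fold at 50 nM (log2 1.12 ± 0.18) and 1.81-fold at 250 nM (log2 0.85 ± 0.18). Between 250 nM and 50 nM the log2 estimate was -0.27 ± 0.17, and the 95% interval ran between -0.63 and 0.09. The gene rests on few reads: at 4 units per fragment, its libraries held about 67.3 to 185 fragments, for which counting alone gives a coefficient of variation of 12.2% to 7.35%.

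**Figure D1:**
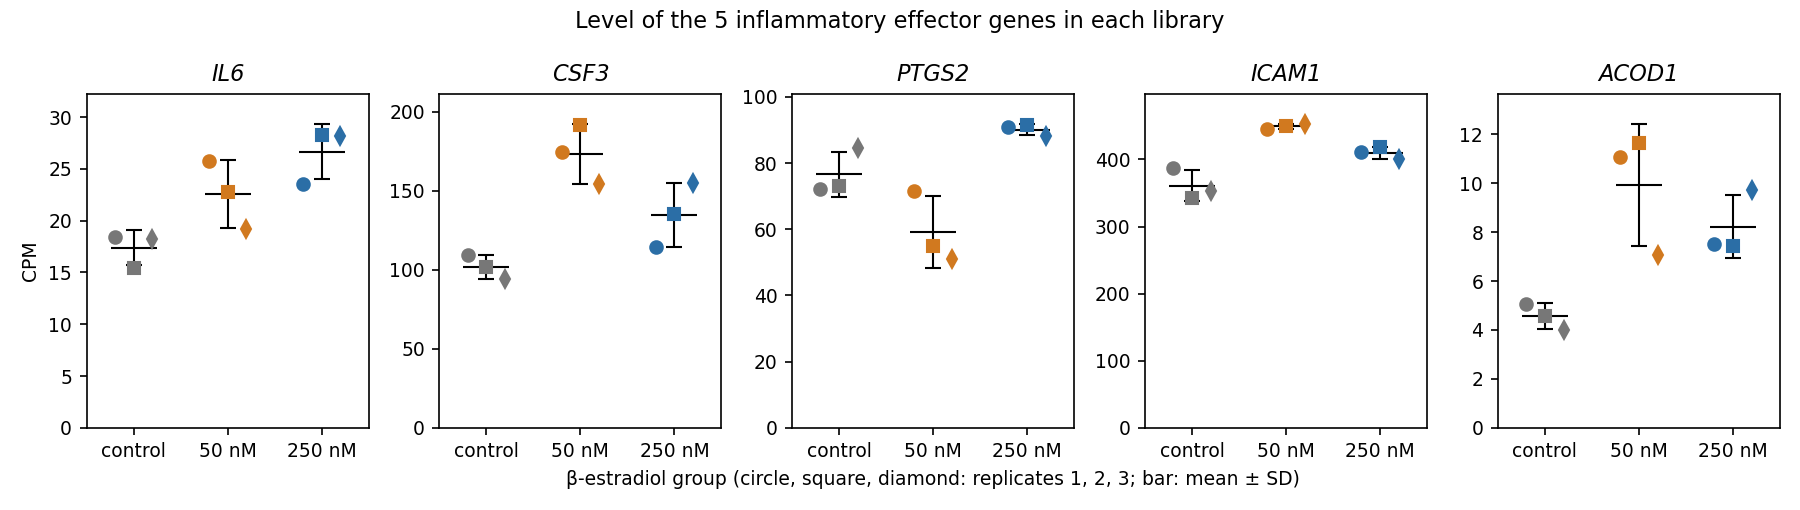
Level in CPM (vertical axis, from 0) of IL6, CSF3, PTGS2, ICAM1 and ACOD1 in the control, 50 nM and 250 nM groups; each symbol is a library (circle, square and diamond for replicates 1, 2 and 3) and bars are mean ± SD of 3 libraries. CSF3, ICAM1 and ACOD1 have their highest mean at 50 nM, IL6 and PTGS2 at 250 nM, and PTGS2 has its lowest mean at 50 nM.

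Side by side, the group means of the 5 genes fell into 3 dose shapes, which restates the reason they were grouped. CSF3, ICAM1 and ACOD1 had their highest mean at 50 nM and an intermediate one at 250 nM. IL6 had its highest mean at 250 nM with 50 nM between, and PTGS2 had its lowest at 50 nM and its highest at 250 nM. Both concentrations were compared with the same 3 controls, so the values at 50 nM and 250 nM are not independent of each other. Over all genes tested, edgeR's quasi-likelihood test with Benjamini-Hochberg adjustment at 0.05 called 3.25% of genes at 50 nM against the control, 0.308% at 250 nM against the control and 0.325% at 250 nM against 50 nM. It called CSF3, ICAM1 and ACOD1 in the first comparison, IL6 in the second and PTGS2 in the third. Since these contrasts chose the genes, nothing is read from those shares. The call for IL6 was absent without any 1 of control replicates 1, 2 and 3 or 250 nM replicates 2 and 3 (log2 fold change 0.66, 0.54, 0.66, 0.57 and 0.58). The call for PTGS2 was absent without any 1 of 50 nM replicate 2 or 250 nM replicates 1 and 2 (0.56, 0.60 and 0.60). In the test of any difference among the 3 groups edgeR called all 5, against 1.86% of all genes. The same values chose the genes, so nothing is read from this share. No overlap between libraries was seen for 5 of the 5 genes at 50 nM, for 5 at 250 nM against the control, and for 2 (PTGS2 and ICAM1) at 250 nM against 50 nM. Over all genes these shares were 19.0%, 15.5% and 11.5%, and nothing is read from them either.

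**Figure D2:**
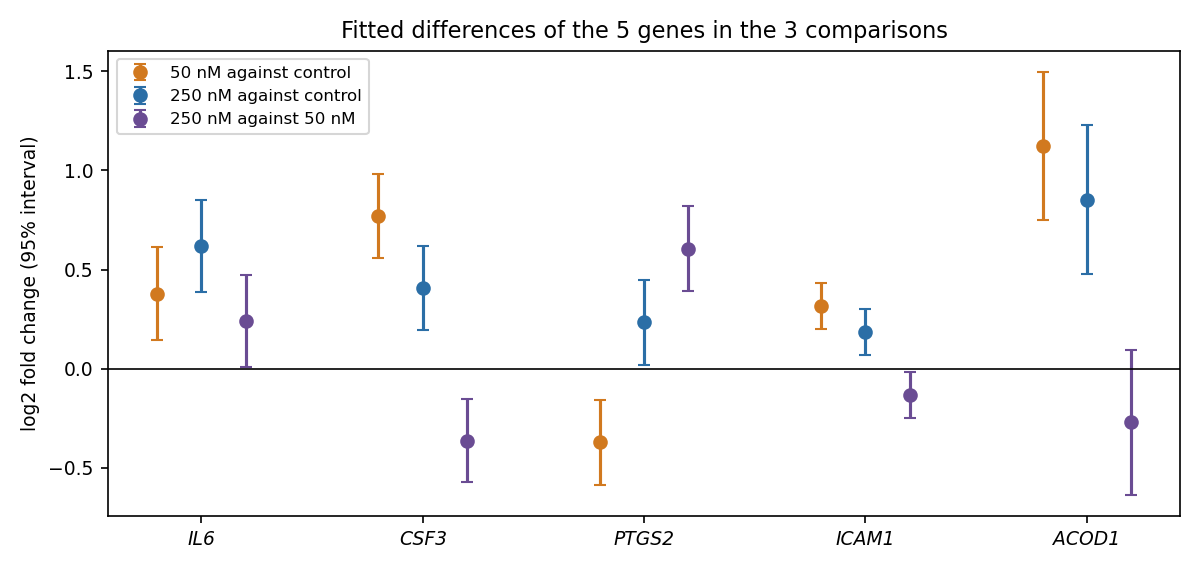
Fitted log2 fold change (vertical axis) of the 5 genes at 50 nM against control (orange), 250 nM against control (blue) and 250 nM against 50 nM (purple); points are estimates and bars are 95% intervals, not adjusted for the number of genes. PTGS2 is the only 1 of the 5 with a negative estimate at 50 nM (-0.37), and ACOD1 has the largest estimates against the control (1.12 and 0.85).

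On the deposited FPKM scale, which divides by gene length and so allows genes to be set beside each other, the order of the means was ICAM1, CSF3, IL6, PTGS2, ACOD1 in every group. In the control the means were 121, 78.5, 14.5, 14.5 and 1.54 FPKM in that order, and IL6 (12.7 to 15.5 FPKM) overlapped PTGS2 (13.6 to 16.0 FPKM). At 50 nM they were 145, 129, 18.2, 10.8 and 3.24 FPKM, and IL6 (15.6 to 20.8 FPKM) stood clear of PTGS2 (9.37 to 13.1 FPKM). At 250 nM they were 134, 101, 21.6, 16.5 and 2.71 FPKM, again with IL6 (19.3 to 22.8 FPKM) above PTGS2 (16.2 to 16.8 FPKM). All other neighbours in the order were apart in every library of a group. CSF3 came closest to ICAM1 at 50 nM, where their ranges were 116 to 141 FPKM and 144 to 148 FPKM.

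The ratio of IL6 to PTGS2 within a library, in FPKM, sets these genes side by side. It was 1.13, 0.932 and 0.954 in the control, 1.59, 1.83 and 1.67 at 50 nM, and 1.15, 1.37 and 1.41 at 250 nM. The ratio was thus close to 1 in the control, and all 6 estradiol libraries stood above all 3 controls, the 50 nM libraries highest. The lowest 250 nM library (1.15) was only just above the highest control (1.13). Both genes were grouped for their different dose shapes in these values, so nothing is read from this order. The ratio of CSF3 to ICAM1 was 0.650, 0.684 and 0.615 in the control, 0.902, 0.980 and 0.782 at 50 nM, and 0.639, 0.744 and 0.889 at 250 nM.

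**Figure D3:**
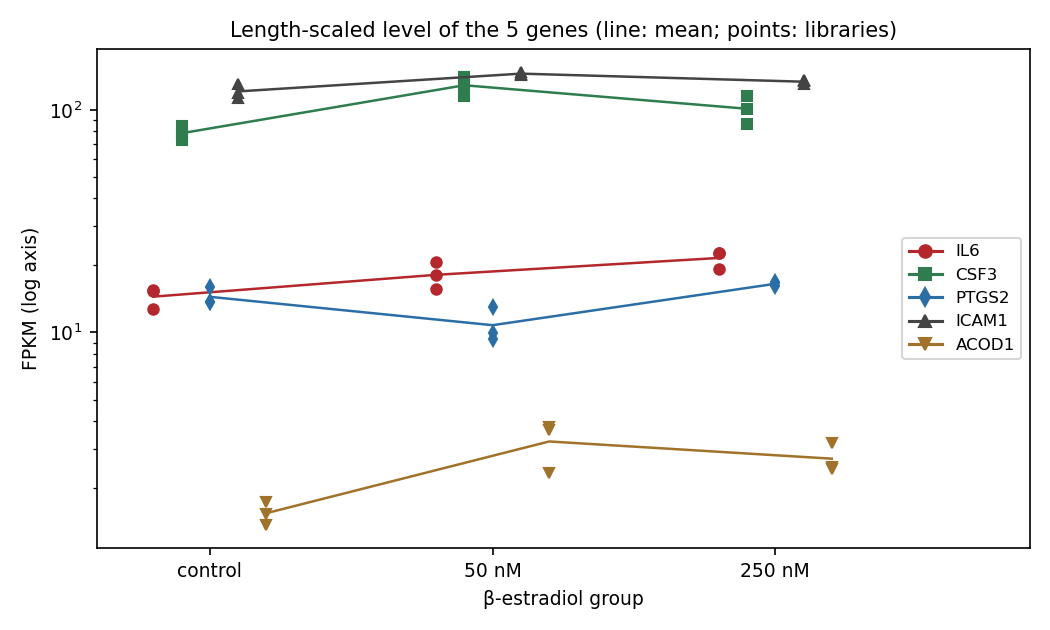
Deposited FPKM (vertical log axis) of the 5 genes in the control, 50 nM and 250 nM groups; points are libraries and lines join group means. IL6 and PTGS2 coincide in the control (both 14.5 FPKM on average) and separate at 50 nM (18.2 and 10.8 FPKM), while ICAM1 and CSF3 stay above them and ACOD1 below in every group.

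Libraries of a group differed in ways that several of the 5 genes shared. The third 50 nM library was the lowest of its group for IL6, CSF3, PTGS2 and ACOD1, by 0.22, 0.17, 0.20 and 0.46 log2 CPM under the group mean, and the highest for ICAM1. The third 250 nM library was the highest of its group for CSF3 and ACOD1 (0.21 and 0.25 above the mean), and the first was the lowest for IL6 and CSF3 (0.17 and 0.23 below). ICAM1 had the lowest coefficient of variation of the 5 at 50 nM, 0.805%, against 6.44% in the control. At 250 nM PTGS2 (1.91%) and ICAM1 (2.24%) were the lowest. At 4 units per fragment, counting alone gives at least 1.18% for ICAM1 and 2.52% for PTGS2. The 0.805% and the 1.91% lie under those levels, so they are not read as steadier expression. ACOD1 was the least steady at 50 nM, at 25.2%, against 11.7% in the control. Without the third 50 nM library, the log2 fold change of IL6 at 50 nM was 0.48 ± 0.10, edgeR called 4 of the 5 genes in place of 3, and it called 564 genes in all in place of 401. Without the first 50 nM library, that of PTGS2 was -0.53 ± 0.08, and without the first 250 nM library, that of CSF3 at 250 nM was 0.51 ± 0.09.

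**Figure D4:**
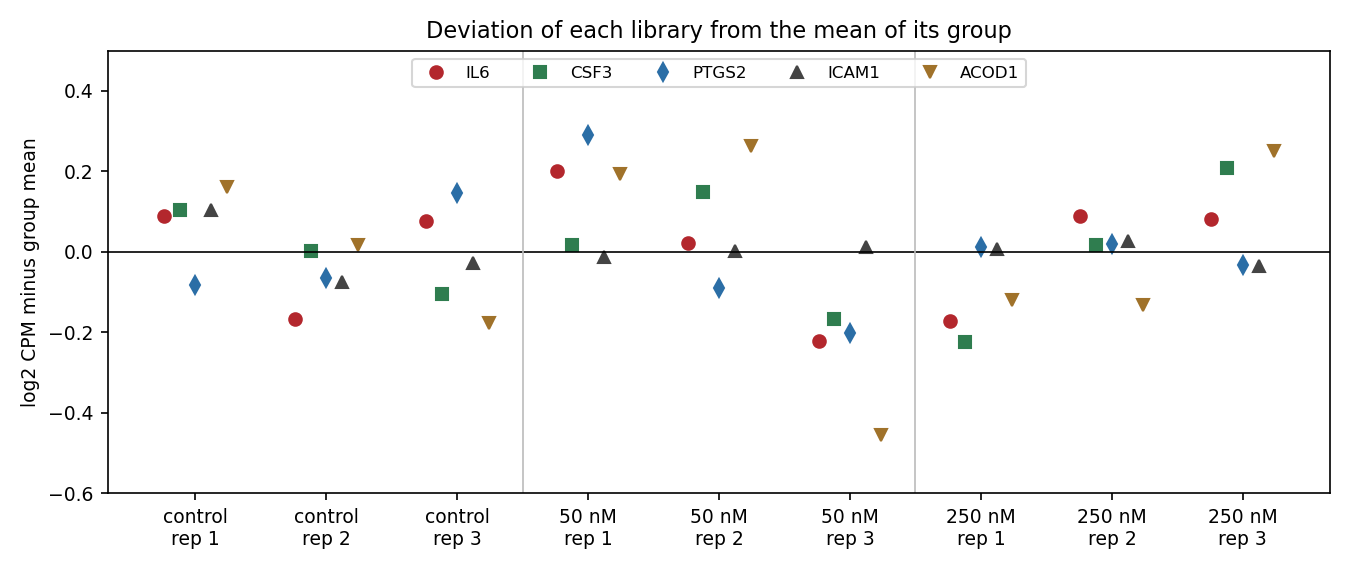
Difference between a library's log2 CPM and the mean of its group (vertical axis) for IL6, CSF3, PTGS2, ICAM1 and ACOD1 in each of the 9 libraries, with grey lines between the groups. In 50 nM replicate 3 the points of 4 genes lie 0.17 to 0.46 below the group mean while that of ICAM1 lies at 0.01, and the points of ICAM1 at 50 nM and 250 nM stay within 0.04 of 0.

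The genes around the 5 were taken from 8 pathway lists, chosen with earlier results of these data known and counted here without the 5. Of 22 other secreted cytokines, chemokines and colony-stimulating factors tested, 3 rose at 50 nM and 0 fell (13.6%, against 3.25% of all genes; median log2 fold change 0.12, against -0.002 over all genes). LIF, a cytokine that also signals through gp130, had 406 ± 27.1 CPM at 50 nM and 382 ± 29.6 CPM at 250 nM, against 315 ± 20.3 CPM in the control (SD, n = 3 each). It rose by 0.36 ± 0.07 at 50 nM (edgeR adjusted p = 0.00879). CCL2, a chemokine that attracts monocytes, had 17.0, 17.3 and 13.5 CPM at 50 nM, against 11.7, 8.47 and 9.29 CPM in the control, and rose by 0.70 ± 0.15 (edgeR adjusted p = 0.0203). IL1A, which encodes the alarm cytokine interleukin 1α, rose by 0.30 ± 0.08 (edgeR adjusted p = 0.0424). CCL2 lost its call without control replicates 2 or 3 or 50 nM replicates 1 or 2 (edgeR adjusted p = 0.0746 to 0.102). IL1A lost it without any control, 50 nM replicates 1 or 2 or 250 nM replicate 2 (0.07 to 0.193). At 250 nM 0 of the 22 passed in edgeR, with 4 at an unadjusted p under 0.05, 1 called by DESeq2 and 0 by limma-voom. The count at 50 nM was 1 without control replicate 2, control replicate 3 or 50 nM replicate 2, and 6 without 50 nM replicate 3.

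Other colony-stimulating factors and a neutrophil chemokine had smaller estimates than CSF3 at 50 nM. CSF2, which encodes granulocyte-macrophage colony-stimulating factor, had 58.4 ± 3.79 CPM at 50 nM and 54.2 ± 6.34 CPM at 250 nM, against 55.0 ± 4.07 CPM in the control (SD, n = 3 each). Its estimate at 50 nM was 0.09, and the 95% interval ran between -0.09 and 0.27. CSF1, the macrophage factor, had an estimate of 0.23, with an interval of -0.01 to 0.47. The neutrophil chemokine gene CXCL8 had 303 ± 39.8 CPM at 50 nM and 332 ± 41.5 CPM at 250 nM, against 315 ± 23.9 CPM in the control (SD, n = 3 each), and its intervals were -0.26 to 0.15 and -0.13 to 0.28. None of CSF1, CSF2 and CXCL8 passed. Within a library, the ratio of CSF3 to CSF2 in FPKM was 2.71, 2.68 and 2.42 at 50 nM and 1.95, 2.41 and 2.22 at 250 nM, against 1.65, 1.77 and 1.47 in the control.

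Receptors for these ligands were unevenly present. CSF3R, the receptor of CSF3, was listed at 0 in all 9 libraries. IL6R, the ligand-binding chain for interleukin 6, averaged 0.119 FPKM at 50 nM and 0.0870 FPKM at 250 nM, against 0.0952 FPKM in the control, from at most 53 units in a library. IL6ST, which encodes gp130, averaged 74.0 and 67.2 FPKM at 50 nM and 250 nM, against 64.4 FPKM in the control, and its log2 fold change of 0.25 ± 0.08 at 50 nM did not pass (edgeR adjusted p = 0.102). Of 41 cytokine receptor and JAK-STAT genes tested, edgeR called 0 at 50 nM, with 8 at an unadjusted p under 0.05, and DESeq2 called 2 and limma-voom 0. Without 50 nM replicate 3 the count was 7. The comparisons of 250 nM with the control and with 50 nM also gave 0 in edgeR, DESeq2 and limma-voom, with 0 and 1 at an unadjusted p under 0.05. The table has no row for SOCS3, IL11, PTGIS, PTGER1 or ICAM4 under these symbols.

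In the prostanoid pathway, 3 enzymes of synthesis named beside PTGS2 had positive estimates at 50 nM, where PTGS2 was lower than in the control. PLA2G4A, the phospholipase that frees arachidonic acid, had an estimate of 0.13 ± 0.05, PTGES, a prostaglandin E synthase, 0.21 ± 0.08, and PTGS1, the constitutive cyclooxygenase, 0.24 ± 0.19 (interval -0.17 to 0.65), and none passed. PTGS1 was much scarcer than PTGS2: the ratio of PTGS2 to PTGS1 in FPKM was 18.0, 13.3 and 14.5 at 50 nM and 25.7, 37.3 and 28.6 at 250 nM, against 20.6, 26.1 and 24.3 in the control. PTGER4, a receptor for prostaglandin E2, had 23.6, 21.0 and 20.5 CPM at 50 nM, against 16.6, 16.2 and 17.9 CPM in the control, and rose by 0.36 ± 0.08 (edgeR adjusted p = 0.021). That call was lost without control replicates 1 or 2 or 50 nM replicate 1 (edgeR adjusted p = 0.0563, 0.0695 and 0.105). PTGER2 was listed at 0 in every library, PTGER3 held at most 5 units, and HPGD, which inactivates prostaglandins, at most 22. Of 22 prostanoid genes tested beside PTGS2, 1 rose at 50 nM and 0 fell, or 4.55% against 3.25% of all genes; the count was 0 without control replicate 2 or 50 nM replicate 1 and 2 without 50 nM replicate 3. At 250 nM against the control edgeR, DESeq2 and limma-voom called 0, with 2 at an unadjusted p under 0.05.

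Other leukocyte adhesion genes did not pass with ICAM1. VCAM1, the vascular cell adhesion molecule, had 30.6, 29.9 and 17.4 CPM at 50 nM and 24.4, 22.4 and 30.0 CPM at 250 nM, against 22.1, 28.8 and 24.8 CPM in the control. Its intervals were wide, -0.32 to 0.40 at 50 nM and -0.34 to 0.38 at 250 nM, and include the estimates of ICAM1. Group means of the related genes were at most 1.30 FPKM for ICAM3, 0.736 FPKM for ICAM5 and 0.228 FPKM for ICAM2, far under those of ICAM1. The integrin subunits that bind ICAM1 on leukocytes were nearly absent: ITGAM was listed at 0, ITGB2 held at most 13 units and ITGAL at most 32. Of 21 adhesion genes beside ICAM1, edgeR called 0 in each comparison, with 3, 0 and 2 at an unadjusted p under 0.05 at 50 nM, at 250 nM and between the concentrations. DESeq2 called 1 at 50 nM and 0 in the others, and limma-voom called 0. Without 50 nM replicate 3 edgeR called 1 at 50 nM.

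Around ACOD1, the mRNAs of known targets of itaconate had estimates close to 0. These levels do not measure the activity of the proteins, so an effect of itaconate on them was not tested. SDHA, a subunit of succinate dehydrogenase, which itaconate inhibits, had an estimate of -0.03 at 50 nM (interval -0.14 to 0.08). NFE2L2, the antioxidant regulator that itaconate is known to activate in mouse macrophages, had -0.10 (-0.28 to 0.08). IRF1, a transcription factor known to induce ACOD1 in macrophages, had 63.1, 63.1 and 58.2 CPM at 50 nM and 41.2, 38.9 and 41.1 CPM at 250 nM, against 38.4, 40.1 and 36.6 CPM in the control. It rose at 50 nM by 0.68 ± 0.06 (edgeR adjusted p = 1.81e-05) and was lower at 250 nM than at 50 nM by 0.61 ± 0.06 (log2 fold change -0.61, edgeR adjusted p = 0.000366). IRF1 kept these calls without any single library. It was the 1 gene of 19 tested in this list, beside ACOD1, to pass at 50 nM (5.26%, against 3.25% of all genes).

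Of 40 genes of NF-κB and MAP kinase signalling tested, 6 rose and 1 fell at 50 nM (17.5%, against 3.25% of all genes), 4 rose and 0 fell at 250 nM (10%, against 0.308%), and 2 were lower at 250 nM than at 50 nM (5%, against 0.325%). The gene that fell was TRAF5, an adaptor of tumour necrosis factor receptors. The rises of REL, NFKBIA, TNFAIP3 and NFKBIZ were known when the list was chosen and give no independent support. TNFAIP3, a deubiquitinase that switches NF-κB off, had 91.0, 88.6 and 72.2 CPM at 50 nM and 39.5, 41.1 and 52.7 CPM at 250 nM, against 23.3, 27.3 and 23.1 CPM in the control. NFKBIA, the inhibitor IκBα, averaged 165 ± 5.01 CPM at 50 nM and 114 ± 6.53 CPM at 250 nM, against 68.0 ± 5.38 CPM in the control (SD, n = 3 each). Both were highest at 50 nM, as CSF3, ICAM1 and ACOD1 were. NFKBIZ, an atypical IκB protein that NF-κB needs to induce IL6, averaged 206 ± 26.5 CPM at 50 nM and 207 ± 13.7 CPM at 250 nM, against 136 ± 5.74 CPM in the control (SD, n = 3 each). MAP3K8, a kinase upstream of ERK, rose by 0.73 ± 0.10 at 50 nM (edgeR adjusted p = 0.00066), and IRAK2, a kinase of interleukin 1 signalling, by 0.32 ± 0.07 (edgeR adjusted p = 0.0141). IRAK2 lost its call without control replicate 3 or 50 nM replicates 1 or 2 (edgeR adjusted p = 0.0688 to 0.0735), and NFKBIZ lost that at 250 nM without 250 nM replicate 3 (edgeR adjusted p = 0.0534). REL, an NF-κB subunit, lost its call at 250 nM without any control, 50 nM replicate 1 or 250 nM replicates 1 or 3 (edgeR adjusted p = 0.055 to 0.198), and the list's count there was 2 without 250 nM replicate 3.

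Decay factors of unstable mRNAs moved in both directions at 50 nM, where 1 of 30 rose and 2 fell (10%, against 3.25% of all genes). ZFP36, or tristetraprolin, which binds AU-rich elements in cytokine and PTGS2 transcripts, had 18.5, 17.7 and 18.3 CPM at 50 nM and 20.5, 19.7 and 16.7 CPM at 250 nM, against 28.2, 24.1 and 24.1 CPM in the control. It fell by 0.49 ± 0.09 at 50 nM (log2 fold change -0.49, edgeR adjusted p = 0.00718). At 250 nM its estimate of -0.42 ± 0.09 did not pass (edgeR adjusted p = 0.075). ZFP36L1, its relative, fell at 50 nM as well (log2 fold change -0.34 ± 0.06, edgeR adjusted p = 0.00414). ZC3H12A, or Regnase-1, which cuts stem-loops in IL6 mRNA, had 110, 125 and 101 CPM at 50 nM and 88.7, 88.8 and 93.7 CPM at 250 nM, against 75.0, 76.9 and 80.7 CPM in the control. It rose by 0.53 ± 0.07 at 50 nM (edgeR adjusted p = 0.000583). These 3 calls held without any single library. Their relative ZFP36L2 was lower at 250 nM than at 50 nM (log2 fold change -0.30 ± 0.06, edgeR adjusted p = 0.0306), a call lost without control replicate 3, 50 nM replicates 1 or 2 or any 250 nM library (edgeR adjusted p = 0.0629 to 0.218). At 250 nM against the control edgeR called 0 of the 30, with 5 at an unadjusted p under 0.05, DESeq2 called 2 and limma-voom 0.

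**Figure D5:**
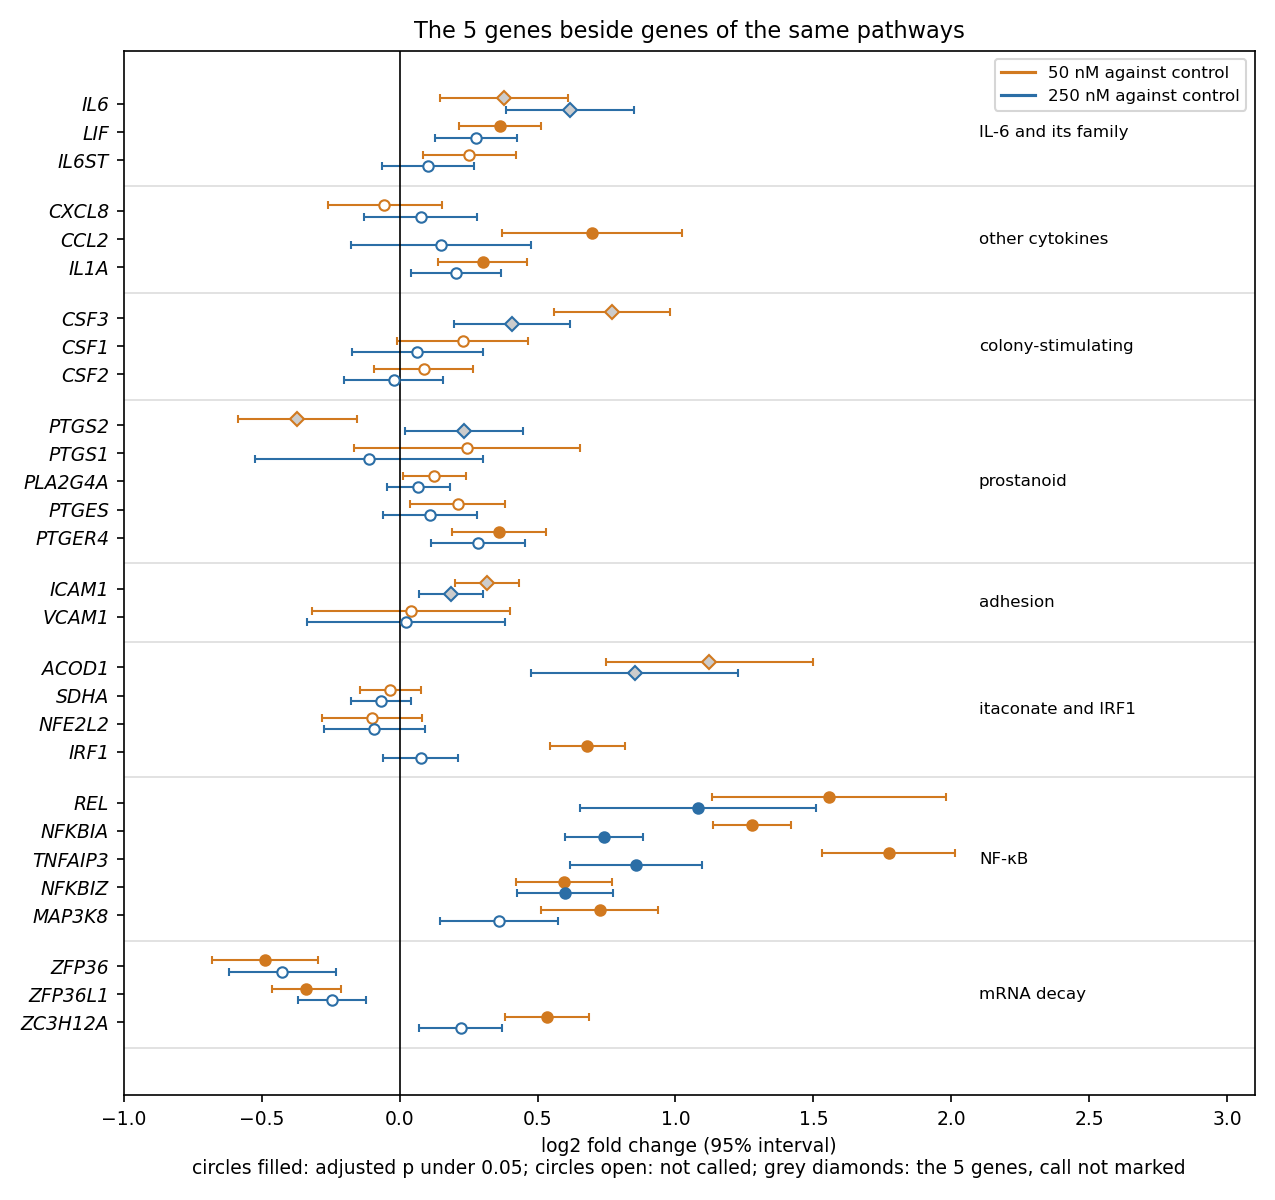
Log2 fold change (horizontal axis) at 50 nM (orange) and 250 nM (blue) against the control for the 5 genes (grey diamonds) and genes of their pathways (circles, filled where edgeR's adjusted p was under 0.05); bars are 95% intervals. PTGS2, ZFP36 and ZFP36L1 lie below 0 at 50 nM (-0.37, -0.49 and -0.34), REL, NFKBIA and TNFAIP3 lie farthest above it, and the intervals of CSF2, CXCL8, VCAM1 and SDHA include 0 in both comparisons.

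The list of inflammatory enzymes, acute phase and complement genes had 2 of 32 higher at 50 nM and 0 lower (6.25%, against 3.25% of all genes), with 27 of 32 estimates above 0 and a median of 0.17, against -0.002 over all genes. These were F3, or tissue factor, which starts coagulation (0.45 ± 0.11, edgeR adjusted p = 0.0352), and S100A8, a calcium-binding protein of inflammation (0.48 ± 0.12, edgeR adjusted p = 0.0456). S100A8 overlapped between the groups. The list's count was 0 without control replicates 2 or 3, 50 nM replicate 1 or 250 nM replicate 3, it was 1 without 50 nM replicate 2 or 250 nM replicates 1 or 2, and it was 5 without 50 nM replicate 3. At 250 nM edgeR, DESeq2 and limma-voom called 0, with 3 at an unadjusted p under 0.05.

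The genes with the most similar profiles differed from gene to gene. Likeness was measured as the root mean square difference between log2 CPM profiles over the 9 libraries, each centred on its own mean. Candidates were 205 genes with a symbol, at least 1 CPM on average and a call in edgeR's test of any difference among the 3 groups. For IL6, whose own profile had a root mean square of 0.29, the nearest were NFKBIZ (0.14), CSRNP1 (0.15) and PRDM1 (0.17). For CSF3 (0.34) they were RIN2 (0.10), KLF10 (0.11) and MAP3K8 (0.11). For PTGS2 (0.29) they were the pseudokinase gene TRIB1 (0.11), FAM222A (0.15) and ERRFI1, an inhibitor of the EGF receptor (0.17). For ICAM1 (0.14) they were DUSP16, ZNF697 and F2RL1 (0.04 to 0.05), and for ACOD1 (0.52) SDC4, LPAR5 and SERPINB2 (0.19 to 0.21). Among the 5 themselves, CSF3 and ICAM1 (0.230), CSF3 and ACOD1 (0.233) and IL6 and ICAM1 (0.235) were about equally close. PTGS2 and ACOD1 were the farthest (0.65), and ICAM1 and ACOD1 lay 0.41 apart. These distances were not scaled for how much each gene varied, which was least for ICAM1 (0.14) and most for ACOD1 (0.52). They thus mix size with shape, and nothing is read from them about likeness of dose shape.

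Position was looked at because neighbouring genes can share counts or regulation. By RefSeq's gene order on the rabbit assembly mOryCun1.1, used for nothing else, none of the 20 nearest protein-coding neighbours, 2 on each side of each gene, overlapped it. Of these, 9 were tested, and edgeR called 0 in any of the 3 comparisons, with a lowest adjusted p of 0.26 and log2 fold changes of -0.29 to 0.41. MED24 and PSMD3, which flank CSF3, had estimates of 0.10 ± 0.06 and 0.04 ± 0.06 at 50 nM, against 0.77 ± 0.10 for CSF3. PLA2G4A lies next to PTGS2 and had the opposite sign at 50 nM, 0.13 ± 0.05 against -0.37 ± 0.10.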

How the data were processed

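mRNA was measured in 9 libraries, grouped by sample title. The authors deposited, for each gene, an estimated count and an FPKM value in every library. Trim Galore, TopHat2 2.1.1, Cufflinks and Cuffdiff appear in the submitters' processing notes. Which build, annotation, counter and strand setting were used is not stated in the sources at hand. Deposited counts are already whole and needed no rounding. The columns of other samples left out numbered 0. Libraries of a group differed by more than sampling noise (chi-square per degree of freedom 3.08 to 11.6), so none was merged.

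Genes were kept by filterByExpr (minimum count 10) and tested with edgeR 4.0.16 in R 4.3.3 (quasi-likelihood test, TMM factors, all 9 libraries in 1 fit), with Benjamini-Hochberg adjustment over 12324 genes and a threshold of 0.05. The minimum count and the main fit use the deposited units, about 4 to a fragment. SE is the absolute log2 fold change divided by the square root of F. The method was tested on simulated data. The alternatives were DESeq2 1.42.0, limma 3.58.1 (voom, and log2 FPKM), other factors, filters and scalings, a replicate block, and leaving out each library.

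The members, lists and alternatives were chosen with earlier results of these data known. Named genes are the members, their direct partners (1 of which is not reported here), up to 6 called genes per list and the 3 nearest profiles per member; the neighbours in the genome were chosen after values were seen.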

Additional observations from a re-analysis of the deposited data

How the results depend on the processing

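No log2 fold change of the 5 genes changed sign under any of the 22 alternatives run. That of ACOD1 at 50 nM ranged from 0.72 to 1.32, of CSF3 from 0.69 to 0.85, of ICAM1 from 0.27 to 0.37, of IL6 from 0.27 to 0.48 and of PTGS2 from -0.53 to -0.28. The same controls serve both concentrations, and 3 libraries per group limit what can be called. The number of the 5 called at 50 nM was 5 with DESeq2 and 5 without a filter; at 250 nM it was 3 with DESeq2, 3 without a filter, 2 with only the groups compared and 0 in each of the 3 FPKM fits; between 250 nM and 50 nM it was 2 with DESeq2 and 0 in the FPKM fits; and among all 3 groups it was 3 on filtered log2(FPKM + 1), 3 on log2(FPKM + 0.1) and 0 on unfiltered log2(FPKM + 1). Leaving out single libraries gave 3 to 4 at 50 nM, 0 to 2 at 250 nM, 0 to 1 between the concentrations and 2 to 5 among the 3 groups. PTGS2 at 50 nM, not called in the main fit, was called in 7 of the 22 alternatives. Among these were limma-voom, a stricter filter (5 CPM in 3 libraries) and counts divided by 4. With counts divided by 4, edgeR called 453 genes at 50 nM and 4 of the 5.

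Over all genes, DESeq2 called 679 at 50 nM, 140 at 250 nM, 99 between the concentrations and 543 among the 3 groups, against 401, 38, 40 and 229 in edgeR. Without a filter 353 differed among the 3 groups, and with only the groups compared 244 were called at 50 nM. On unfiltered log2(FPKM + 1) the counts were 234, 4, 11 and 81, and at 250 nM the filtered FPKM fits gave 14 (pseudocount 1) and 15 (pseudocount 0.1). A log2 fold change of at least 0.5 left 137, 16 and 22. Leaving out single libraries gave 187 to 564, 5 to 56, 21 to 50 and 122 to 339. At 50 nM, leaving out control replicates 2 and 3 in turn gave 255 and 187, and leaving out 50 nM replicates 1 and 2 gave 213 and 211. At 250 nM it was 21, 25 and 15 without control replicates 1, 2 and 3, and 25, 13 and 5 without 250 nM replicates 1, 2 and 3. Between the concentrations it was 23 and 21 without 250 nM replicates 1 and 2, and among the 3 groups 122 without control replicate 3 and 136 and 147 without 50 nM replicates 1 and 2. The cause of these shifts was not tested.

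Replicate numbers are shared by the groups, and the deviations showed little sign of pairing by number. The correlations of same-numbered deviations lay between -0.032 and 0.036, and 3 of 9 libraries correlated best with their own number. With 3 libraries per group, this cannot exclude pairing. With the replicate block, edgeR called 492, 43, 42 and 272 genes, and 4 of the 5 at 50 nM, adding PTGS2.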
